A study of Mus musculus with 4 samples.

Results

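Small pre-B cells were examined in single-cell RNA libraries of CD45+ cells, that is leukocytes, sorted from the bone marrow of tumor-free mice. The KO library came from S100a8fl/flVav-Cre+/- mice, in which Cre driven by Vav removes S100a8 across the blood-forming system. The WT library came from S100a8fl/flVav-Cre-/- mice, which carry the same floxed alleles and no Cre. Neither group was treated, and each library was 1 pool of 3 mice. Members were chosen by their own UMI counts (unique molecular identifiers, each standing for 1 captured RNA molecule). A small pre-B cell was a droplet barcode with at least 200 genes detected, at most 10% of its UMIs from mitochondrial genes, at least 1 UMI of Cd79a and at least 1 UMI of Rag1, Rag2 and Il2ra together. It also had at most 1 UMI of Igll1 and Vpreb1 together and at most 1 UMI of Mki67 and Top2a together. By this rule 820 of 18817 kept barcodes were members, 206 of 10853 in KO and 614 of 7964 in WT. With 1 library per genotype no difference below has a replicate check and none was tested, and every interval is a 95% interval that covers counting error only.

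Small pre-B cells are resting B-cell precursors that have already built an immunoglobulin heavy chain, have left the dividing large pre-B stage and now join the gene segments of a light chain. RAG1 and RAG2 form the recombinase that cuts the DNA for this joining, and IL2RA (CD25) is the surface protein by which the stage is commonly sorted. A kappa light chain is usually tried before a lambda chain, and a cell whose new receptor works goes on to the immature B stage, which carries MS4A1 (CD20) and MHC class II.

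Promoter sequence is shown for 3 genes named below, so that the letters behind a motif count can be read. The windows hold 250 bases before and 50 bases after a RefSeq transcription start on GRCm38.p6 and are printed on the strand of the gene. In Rag1 (chr2:101649483-101649782, minus strand) and Sox4 (chr13:28953650-28953949, minus strand), markers of the stage, capitals mark the E-box CAGCTG, a sequence that E-proteins such as TCF3 bind. In Ifi203 (chr1:173942443-173942742, minus strand), an interferon-induced gene, capitals mark the letters GAAA, any 2 bases and GAAA, the core of the interferon-stimulated response element.
Rag1: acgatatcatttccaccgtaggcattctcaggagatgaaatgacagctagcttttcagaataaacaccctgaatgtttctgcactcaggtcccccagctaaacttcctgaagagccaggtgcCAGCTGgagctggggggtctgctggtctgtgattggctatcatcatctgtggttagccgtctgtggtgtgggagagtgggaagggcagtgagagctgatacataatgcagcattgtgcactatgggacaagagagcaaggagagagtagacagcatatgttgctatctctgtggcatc
Sox4: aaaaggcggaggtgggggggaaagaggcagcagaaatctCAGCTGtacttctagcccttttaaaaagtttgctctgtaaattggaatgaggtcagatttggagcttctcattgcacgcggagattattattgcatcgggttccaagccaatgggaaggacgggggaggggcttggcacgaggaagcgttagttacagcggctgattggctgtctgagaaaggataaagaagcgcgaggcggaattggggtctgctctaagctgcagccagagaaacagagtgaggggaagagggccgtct
Ifi203: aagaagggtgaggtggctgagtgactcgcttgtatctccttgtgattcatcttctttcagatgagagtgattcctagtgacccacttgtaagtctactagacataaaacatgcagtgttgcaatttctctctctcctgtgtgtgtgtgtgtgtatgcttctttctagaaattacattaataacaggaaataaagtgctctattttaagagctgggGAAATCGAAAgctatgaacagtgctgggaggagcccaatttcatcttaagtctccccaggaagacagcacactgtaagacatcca
On either strand, CAGCTG stood in a promoter of 18.3% of all 27025 genes (16.3% of 32851 promoters) and of 2 of the 9 matched small pre-B markers, of 13 marker genes in all. The interferon motif stood in a promoter of 3.99% of all genes (3.44% of promoters) and of 24 of the 48 matched interferon genes. The EBF1 motif (TCCC, any 2 bases, GGGA) was in 0 of the 10 promoters of the 9 matched markers and in 0.904% of all promoters. A match describes the letters of the window, and no match says only that the letters are not in it.

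Some members carried the transcripts of another cell type, which is stated here because it touches several results. Over 1% of their UMIs came from neutrophil granule genes in 22 KO and 55 WT members. In 1 KO and 3 WT members over 1% came from hemoglobin genes, and in 1 WT member from the basophil and mast cell genes Mcpt8, Prss34 and Cpa3. Another 2 WT barcodes, with 26420 and 20452 UMIs, held plasma cell transcripts. They had 5730 and 5359 Igkc UMIs and 936 and 1480 Jchain UMIs, had no Rag1 or Rag2 UMI and entered through 1 Il2ra UMI each. Among the barcodes with the highest doublet scores were 31 KO and 63 WT members. Members with either feature, 34 of 206 in KO and 75 of 614 in WT, are called mixed barcodes. They held 37.1% of the UMIs of KO members and 32.1% of those of WT members, and values without them are given beside the results they move. The 2 libraries shared 30 kept barcodes, 1 of which was a member in both.

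The label was read against its markers. Over the 13 small pre-B markers, the summed level was 17573 CPM (UMIs per 1000000 UMIs of the summed members) in KO members and 17301 CPM in WT members, against 897 and 837 CPM in Cd79a-negative barcodes of the same libraries. The selection rule used 4 of the 13 (Cd79a, Rag1, Rag2 and Il2ra) and the comparison barcodes lack Cd79a, so these sums are a description. Of markers that the rule did not use, an Ebf1 UMI was in 98.5% of KO and 97.4% of WT members, against 1.17% and 3.88% of Cd79a-negative barcodes. A Vpreb3 UMI was in 91.3% of KO and 91.5% of WT members, against 1.15% and 5.17% of those barcodes. A member took a median of 2.21% of its UMIs from these genes in KO and 2.17% in WT. Of 5 pro-B and large pre-B markers, Igll1 and Vpreb1 of which the rule itself limited, the sum was 74.6 CPM in KO members, against 44.5 CPM in those of WT. These sums rest on 31 and 53 UMIs, and a single member held up to 19 (KO) and 22 (WT) Dntt UMIs. Immature and mature B markers (7 genes, 1 at 0 in KO and 0 in WT) summed to 1530 CPM in KO members and 1031 CPM in WT members, against 297 and 405 CPM in Cd79a-negative barcodes, and a UMI of them was in 55.3% of KO and 51.5% of WT members. Plasma cell markers (3 genes, none at 0) summed to 81.8 CPM in KO and 2111 CPM in WT, and NK markers summed to 0 UMIs in KO and 17 UMIs in WT. The summed level of 8 neutrophil markers was 48439 CPM in KO and 36525 CPM in WT members, with a per-cell median of 0.514% and 0.416% of UMIs, a lowest value of 0.0742% and 0%, and a highest of 26.5% and 27.3%. None of the 8 was at 0 in either library. Monocyte and macrophage markers (5 genes, none at 0) summed to 118 CPM in KO and 129 CPM in WT, and plasmacytoid dendritic markers (4 genes, 1 at 0 in each library) to 72.1 and 107 CPM. Granulocyte progenitor markers (4 genes, none at 0) summed to 839 CPM in KO and 133 CPM in WT, and basophil and mast cell markers (3 genes, none at 0) to 5 and 346 UMIs. A single member held up to 99 Elane UMIs in KO and 1 in WT. T cell markers summed to 2 UMIs in KO, with 4 of 6 genes at 0, and 46 UMIs in WT, with 1 at 0. Neutrophil granule genes in all members summed to 28.7% (KO) and 29.1% (WT) of their level in Cd79a-negative barcodes. These shares were taken as free or foreign RNA where free RNA was subtracted. The part of other cells' transcripts in the results was not tested beyond that subtraction and the values without mixed barcodes. Erythroid markers (5 genes, none at 0) summed to 240 CPM in KO and 2066 CPM in WT, where 1 member took 53.8% of its UMIs from them.

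Depth was close between the libraries. Members held 415805 UMIs in KO and 1191586 UMIs in WT, with a median of 1566 and 1492 UMIs and 961 and 920 genes per cell. The median mitochondrial share was 2.83% in KO and 3.40% in WT. The targeted gene followed the labels. S100a8, which encodes 1 chain of the neutrophil protein calprotectin, had 0 UMIs in the 206 KO members, which allows a share of cells with a UMI of up to 1.77%. In WT members it had 30307 UMIs, or 25434 CPM, and 93.3% of them held at least 1 UMI. Against a floor of 3 UMIs over the KO members, its level was at least 3525-fold lower in KO. In WT, 98.8% of Cd79a-negative barcodes held an S100a8 UMI as well. Without mixed barcodes S100a8 had 0 UMIs in KO members and 1663 UMIs, or 2056 CPM, in WT members, and the source of these transcripts was not tested. S100a9, its partner, reached 33451 CPM in KO members and 22042 CPM in WT members (ratio 1.52, 1.49 to 1.55), and 2987 and 2315 CPM without mixed barcodes (ratio 1.29).

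The KO library held fewer small pre-B cells. They made up 1.90% (1.65 to 2.17) of kept barcodes in KO and 7.71% (7.13 to 8.32) in WT, 4.06-fold lower in KO (3.48 to 4.74). Barcode shares sum to the whole, and Cd79a-negative barcodes were 89.0% of the KO and 69.2% of the WT library. Within Cd79a-positive barcodes the small pre-B share was 17.2% (15.1 to 19.4) in KO and 25.0% (23.3 to 26.8) in WT, a ratio of 0.686 (0.595 to 0.791). These counts follow from the selection rule and are given as a description. A library cannot tell fewer cells apart from other cells being more numerous.

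Neighboring stages were cut with their own UMI rules from the same Cd79a-positive barcodes, and their direction depended on the denominator. As shares of kept barcodes all 4 stages were lower in KO, with ratios of 0.639 (0.499 to 0.820) for Igll1/Vpreb1-positive, 0.355 (0.309 to 0.408) for cycling and 0.449 (0.397 to 0.509) for Ms4a1-positive barcodes. The shares within Cd79a-positive barcodes follow. Barcodes with at least 2 UMIs of Igll1 and Vpreb1, the surrogate light chain of pro-B and large pre-B cells, were 9.59% of Cd79a-positive barcodes in KO and 5.38% in WT (ratio 1.78, 1.40 to 2.27). Cycling barcodes, with at least 2 UMIs of Mki67 and Top2a, were 23.8% in KO and 24.0% in WT (ratio 0.990, 0.875 to 1.12). Ms4a1-positive barcodes without Rag1, Rag2 or Il2ra UMIs were 31.4% in KO and 25.0% in WT (ratio 1.25, 1.12 to 1.40). Small pre-B cells were thus the stage, of these 4, with the lowest ratio of KO to WT over either denominator. The WT counts of small pre-B and Ms4a1-positive barcodes were both 614 by coincidence, since the rules exclude each other.

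**Figure D1:**
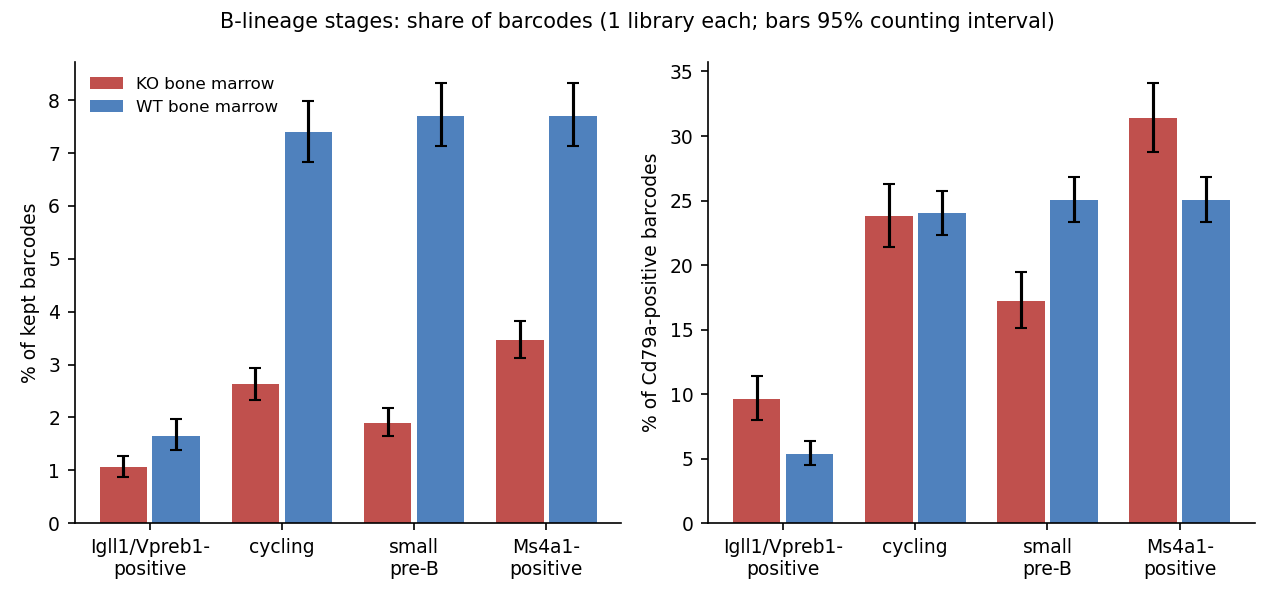
Share of barcodes in 4 B-lineage stages (KO bone marrow left of WT bone marrow in each pair, 1 library each), as a percent of kept barcodes (left) and of Cd79a-positive barcodes (right), with 95% binomial intervals. Small pre-B cells stand at 1.90% and 7.71% of kept barcodes, and at 17.2% and 25.0% of Cd79a-positive barcodes, in KO and WT.

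Most members entered the set through Rag1. A Rag1 UMI was present in 171 of 206 KO and 497 of 614 WT members, a Rag2 UMI in 55 and 160, and an Il2ra UMI in 67 and 255. Members with Rag1 or Rag2 but no Il2ra UMI numbered 139 in KO and 359 in WT, those with Il2ra alone 22 and 81, and those with both 45 and 174. Just inside the threshold, 65 KO and 214 WT members had exactly 1 UMI of the 3 genes. Just outside it, 593 KO and 1117 WT barcodes met every other condition with no UMI of the 3. Only 3 barcodes in each library failed through 2 UMIs of Igll1 and Vpreb1 with all else met.

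The levels of the genes that chose the members are given without further reading. Rag1 was at 926 CPM (836 to 1023) in KO and 857 CPM (805 to 911) in WT, a ratio of 1.08. Rag2 was at 171 and 155 CPM in KO and WT, a ratio of 1.10. Il2ra had 216 CPM in KO and 292 CPM in WT, 1.35-fold lower in KO (ratio 0.741, 0.581 to 0.937), and without mixed barcodes the ratio was 0.819 (0.628 to 1.06). An Il2ra UMI was in 32.5% of KO and 41.5% of WT members. In the same members Cd79a, the signaling chain of the B-cell receptor, measured 2778 CPM in KO members and 2432 in WT members. Rag1 UMIs were found in 0.311% of KO and 1.12% of WT Cd79a-negative barcodes. Those barcodes include 57 in KO and 85 in WT that met every other condition, so this share is not a background alone. With each cell thinned to 1000 UMIs, 60.5% of 177 KO and 61.0% of 520 WT members kept a Rag1 UMI, after 29 and 94 shallower cells were left out.

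The transcription factors of the B lineage had like levels in both libraries. EBF1 and PAX5 commit cells to the B lineage, and Ebf1 was at 3891 CPM in KO members and 3938 CPM in WT members (ratio 0.988, 0.933 to 1.05). Pax5 had 835 CPM in KO and 859 CPM in WT (ratio 0.972, 0.858 to 1.10). Sox4, a factor that early B cells need, measured 1830 CPM in KO members and 1831 in WT members (ratio 0.999, 0.919 to 1.09). Bach2, a repressor active at the pre-B receptor checkpoint, was at 1599 CPM in KO members and 1702 CPM in WT members (ratio 0.940, 0.860 to 1.03). The groups overlapped within their counting intervals for all 4 genes. Foxo1, which drives Rag transcription, had 406 CPM in KO and 336 CPM in WT (ratio 1.21, 1.01 to 1.45).

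**Figure D2:**
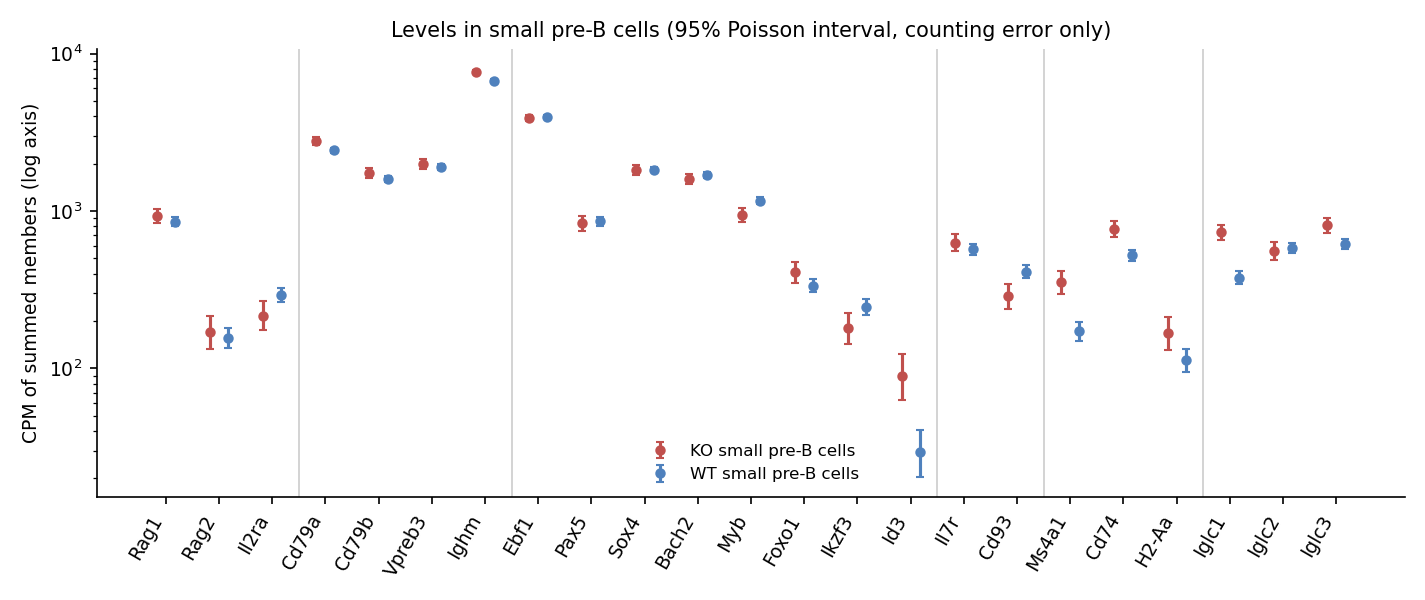
Level of 23 genes in the summed small pre-B cells (log axis, CPM), KO left of WT for each gene, with exact 95% Poisson intervals; grey lines part the recombinase and sorting genes, receptor parts, transcription factors, early receptors, later-stage genes and lambda constant genes. Rag1, Ebf1, Pax5, Sox4 and Bach2 overlap between the libraries, while Ms4a1 and Iglc1 lie higher, and Cd93 lower, in KO.

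Some factors stood apart. Among 4953 measured genes (at least 50 UMIs over both libraries), 402 were at least 1.5-fold higher in KO members, which is 8.12%, and 277 were at least 1.5-fold lower, which is 5.59%. Higher genes were thus 59.2% of those past the fold, against 48.8% when each cell's own CPM was averaged instead, 43.9% after thinning and 42.5% without mixed barcodes. The median log2 ratio over all measured genes was 0.06. Of 31 measured B-lineage transcription factors 2 were past 1.5-fold higher and none lower, with a median log2 ratio of 0.04, so the list was near the level of all genes. The 2 were Id3, an inhibitor of E-proteins, and Bcl6, a repressor that protects pre-B cells during light chain joining. Id3 had 37 UMIs in KO (89.0 CPM) and 35 UMIs in WT (29.4 CPM), a ratio of 3.03 (1.86 to 4.95), and Bcl6 had 24 and 27 UMIs (ratio 2.55). Both were named after their values were seen, since they lie under 100 UMIs. Myb, which early lymphoid cells need, measured 940 CPM in KO members and 1164 in WT members (ratio 0.808, 0.720 to 0.904). Ikzf3 (Aiolos), which small pre-B cells induce, was at 180 CPM in KO members and 247 CPM in WT members (ratio 0.731, 0.560 to 0.945). Tcf4, an E-protein, had 380 CPM in KO and 467 CPM in WT (ratio 0.814), and 463 and 502 CPM without mixed barcodes (ratio 0.922). Without mixed barcodes the ratio of Id3 was 3.65, that of Bcl6 2.37, that of Myb 0.816 and that of Ikzf3 0.750.

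Of 15 measured genes of the pre-B receptor and its signaling chain 0 passed 1.5-fold in either direction, against 8.12% of all genes higher and 5.59% lower, with a median log2 ratio of 0.06. Without mixed barcodes 2 of 15 were lower, against 7.00% of all genes. These were Plcg2, a phospholipase of receptor signaling, with 12 UMIs in KO and 83 UMIs in WT (ratio 0.447), and the scaffold gene Bank1, with 12 and 61 UMIs (ratio 0.609), both named after their values were seen. In all members their ratios were 0.826 and 0.697. Vpreb3, a companion of the immature receptor, measured 1984 CPM in KO members and 1903 in WT members (ratio 1.04, 0.962 to 1.13). Cd79b was at 1751 CPM in KO members and 1598 CPM in WT members (ratio 1.10, 1.00 to 1.19). Blnk, the adaptor of the receptor, had 406 CPM in KO and 502 CPM in WT (ratio 0.810, 0.679 to 0.962). Syk, its kinase, measured 1147 CPM in KO members and 1308 in WT members (ratio 0.877, 0.790 to 0.973), and Btk 137 and 135 CPM (ratio 1.01). Cd93, an early B-cell surface protein that is lost with maturation, was at 286 CPM in KO members and 412 CPM in WT members, a ratio of 0.695 (0.564 to 0.850), and at 344 and 513 CPM without mixed barcodes.

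Recombination and end joining genes held 9 measured members, 1 past 1.5-fold higher and 1 lower, against 8.12% and 5.59% of all genes, with a median log2 ratio of -0.01. Without mixed barcodes 0 and 0 of 7 were past the fold, against 5.17% and 7.00%. Xrcc6 (Ku70), which holds broken ends, had 327 CPM in KO and 350 CPM in WT (ratio 0.935, 0.764 to 1.14). Lig4, the ligase that seals the joint, measured 93.8 CPM in KO members and 133 in WT members (ratio 0.703, 0.482 to 1.00). Dclre1c (Artemis), which opens the hairpin ends, had 7 UMIs in KO and 46 UMIs in WT (ratio 0.436), and Dntt had 22 and 36 UMIs (ratio 1.75) but 1 and 27 UMIs without mixed barcodes. The interleukin-7 receptor pathway, which feeds dividing precursors, had 0 of 10 measured genes past 1.5-fold and a median of 0.18. Its receptor chain Il7r was at 628 CPM in KO members and 569 CPM in WT members (ratio 1.10, 0.953 to 1.27). Cell cycle exit and quiescence genes had 0 higher and 1 lower of 16 (Sesn3, ratio 0.573), S phase genes 0 and 1 of 6, and G2 and M phase genes 1 and 1 of 5, against the same shares of all genes. Without mixed barcodes they had 0 and 1 of 13, 0 and 0 of 5, and 0 and 1 of 5.

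Of 16 measured genes of the MHC class II and later B list, 3 were past 1.5-fold higher, against 8.12% of all genes, and none was lower, against 5.59%, with a median log2 ratio of 0.26. Without mixed barcodes 2 of 14 were higher and 0 lower, against 5.17% and 7.00%. Ms4a1 (CD20) was at 351 CPM (296 to 413) in KO and 173 CPM (150 to 198) in WT, a ratio of 2.03 (1.63 to 2.52). A Ms4a1 UMI was found in 20.9% of KO and 13.7% of WT members, and in 15.8% and 11.3% after thinning. In Cd79a-negative barcodes the share was 0.269% in KO and 1.05% in WT. Cd74, the invariant chain of MHC class II, had 770 CPM in KO and 521 CPM in WT (ratio 1.48, 1.29 to 1.69). H2-Aa, a class II chain, measured 168 CPM in KO members and 112 in WT members, just under the 1.5-fold line (interval of the ratio 1.10 to 2.01). The class II chains H2-Ab1, at 111 CPM in KO members and 99.0 CPM in WT members (ratio 1.12, 0.777 to 1.58), and H2-Eb1, at 62.5 and 74.7 CPM (ratio 0.837, 0.519 to 1.31), had intervals that held 1. Cd40 had 24 UMIs in KO and 40 UMIs in WT (ratio 1.72, 0.991 to 2.92). Ltb, a lymphotoxin chain, was at 142 CPM in KO members and 80.6 CPM in WT members (ratio 1.76), but at 80.3 and 74.2 CPM without mixed barcodes (ratio 1.08). Without them the ratios of Ms4a1 (1.93), Cd74 (1.37) and H2-Aa (1.64) kept their direction, and those of H2-Ab1 and H2-Eb1 were 0.949 and 0.761. Intervals of the share of all members with a UMI overlapped for Ms4a1 (15.5% to 27.1% in KO, 11.1% to 16.7% in WT). They did too for Cd74 (31.7% to 45.4% in KO, 28.1% to 35.6% in WT). An H2-Aa UMI was in 12.1% of KO and 10.1% of WT members, and in 6.21% and 6.92% after thinning. A single member held up to 25 (KO) and 16 (WT) Ms4a1 UMIs, 53 and 41 of Cd74, and 17 and 10 of H2-Aa.

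The light chain genes differed between the libraries in unlike ways, and the ratio of kappa turned with the mixed barcodes. The lambda constant gene Iglc1 was at 731 CPM (651 to 818) in KO and 376 CPM (342 to 412) in WT, a ratio of 1.94 (1.68 to 2.25), and at 929 and 507 CPM without mixed barcodes. Iglc3 had 810 CPM in KO and 621 CPM in WT (ratio 1.31, 1.14 to 1.49), and Iglc2 558 and 583 CPM (ratio 0.957, 0.821 to 1.11). The sequences of Iglc2 and Iglc3 are nearly the same, so how their UMIs divide is uncertain. Igkc measured 2095 CPM in KO members and 11422 in WT members, a ratio of 0.183, but 5730 and 5359 of the 13610 WT UMIs came from the 2 barcodes with plasma cell transcripts. Without mixed barcodes Igkc was at 2757 CPM in KO members and 2653 CPM in WT members (ratio 1.04, 0.954 to 1.13). Ighm, the heavy chain, had 7638 CPM in KO and 6715 CPM in WT (ratio 1.14, 1.09 to 1.19).

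Counted per cell, a UMI of Iglc1, Iglc2 or Iglc3 was present in 65.5% (58.6 to 72.0) of KO and 52.1% (48.1 to 56.1) of WT members. After thinning to 1000 UMIs the shares were 55.9% (48.3 to 63.4) of 177 KO and 42.9% (38.6 to 47.3) of 520 WT members. An Igkc UMI was in 68.0% of KO and 79.0% of WT members, and in 67.2% (59.8 to 74.1) and 73.1% (69.0 to 76.8) after thinning. The thinned intervals of lambda did not overlap, and those of kappa did. Members with lambda and no kappa UMI were 23.3% in KO and 15.3% in WT, those with kappa and no lambda UMI 25.7% and 42.2%, and those with both 42.2% and 36.8%. Igkc UMIs were also found in 11.5% of KO and 31.7% of WT Cd79a-negative barcodes, at medians of 2900 and 2641 UMIs, while Iglc1 UMIs were in 0.300% and 0.871% of them. This background of Igkc was thus higher in WT, and its part in the difference of kappa shares was not tested.

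**Figure D3:**
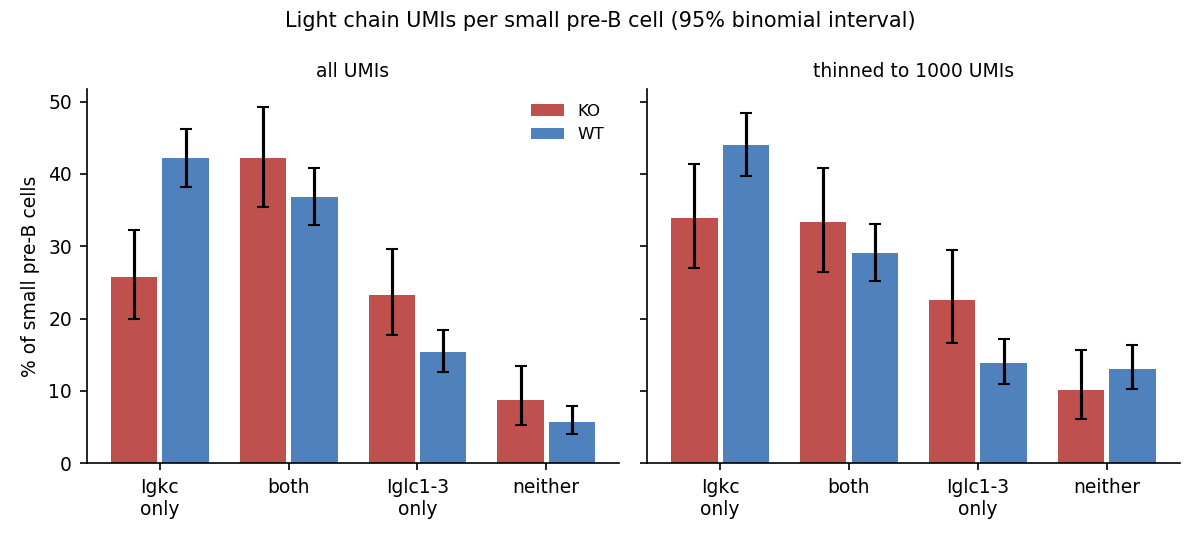
Percent of small pre-B cells (KO left of WT) with UMIs of Igkc only, of both kinds, of Iglc1 to Iglc3 only, or of neither, from all UMIs (left) and after thinning each cell to 1000 UMIs (right), with 95% binomial intervals. The lambda-only class is 23.3% and 15.3% in KO and WT from all UMIs, and the kappa-only class 25.7% and 42.2%.

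Members differed among themselves along the same line in both libraries. Without mixed barcodes, 34 of 172 KO and 72 of 539 WT members had a Ms4a1 UMI, at median depths of 1444 and 1344 UMIs, against 1459 and 1431 UMIs in members without one. In KO, Ms4a1-bearing members had 866 CPM of Rag1, 1179 of Sox4, 332 of Il7r and 608 of Myb, against 1284, 2765, 965 and 1371 CPM in KO members without a Ms4a1 UMI. In WT the same 4 genes were at 883, 1460, 227 and 638 CPM, against 1166, 2515, 834 and 1625 CPM. Cd74 ran the other way, at 2027 against 458 CPM in KO and 1853 against 363 CPM in WT. Iglc1 did too, at 2119 against 618 CPM in KO and 1224 against 389 CPM in WT. The KO level of Iglc1 thus lay above the WT level on both sides of this split, with intervals of 1750 to 2544 and 1029 to 1444 CPM among Ms4a1-bearing members, and of 515 to 734 and 344 to 438 CPM among the others. Id3 measured 276 CPM in KO members and 69.9 in WT members with Ms4a1, on 15 and 8 UMIs, and 86.9 and 28.8 CPM without it.

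Levels also differed by the route into the set. Again without mixed barcodes, members that entered through Il2ra alone (19 KO, 67 WT) had the most Ms4a1, at 1569 CPM (KO) and 606 CPM (WT), on 52 and 58 UMIs. Members with both Il2ra and a Rag UMI (38 KO, 146 WT) had 189 CPM in KO and 125 CPM in WT, and those with a Rag UMI alone (115 KO, 326 WT) had 304 and 200 CPM. Igkc was likewise highest in the Il2ra-only members, at 5069 CPM (KO) and 4776 CPM (WT), against 2090 and 2139 CPM in members with both. Sox4 was lowest in the Il2ra-only members, at 1358 CPM (KO) and 1839 CPM (WT), against 3095 and 2414 CPM with both. Median depth also differed by route, in KO and WT at 1776 and 1393 UMIs with Il2ra alone. It was 1675 and 1577.5 UMIs with both, and 1357 and 1361.5 UMIs with a Rag UMI alone.

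Set beside the neighboring stages, small pre-B cells had their own levels of several genes that the rule did not use. These are descriptions, since all stages were cut from genes of the same cells. Barcodes with other cells' transcripts or high doublet scores were kept in every stage. In KO and WT, median depth was 1855 and 1580.5 UMIs in Ms4a1-positive, 2564 and 1891.5 in Igll1/Vpreb1-positive and 9463 and 5754 in cycling barcodes. In small pre-B cells Sox4 reached 1830 CPM (KO) and 1831 CPM (WT), against 1319 and 1607 in Igll1/Vpreb1-positive, 334 and 388 in cycling and 166 and 241 CPM in Ms4a1-positive barcodes. In the same order Bach2 reached 1599 and 1702 CPM in small pre-B cells, against 644 and 703 in Igll1/Vpreb1-positive, 326 and 498 in cycling and 542 and 604 CPM in Ms4a1-positive barcodes. Small pre-B cells thus had the most Bach2 and the most Sox4 of the 4 stages in each library. Il7r, at 628 and 569 CPM, was 41.7-fold and 23.7-fold above its level in Ms4a1-positive barcodes of KO and WT. Xrcc6 was 12.3-fold and 12.4-fold, Steap4 15.1-fold and 12.5-fold, and Tifa, an adaptor of NF-kB signaling, 14.4-fold and 9.91-fold above it. The Steap4 folds rest on 4 KO and 6 WT UMIs in Ms4a1-positive barcodes.

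Lower than in Ms4a1-positive barcodes were Fcer2a (CD23), H2-DMb2, Cr2 (CD21), Cd83 and the class II chains. H2-Aa was 13.3-fold lower in small pre-B cells of KO and 14.5-fold lower in those of WT, and H2-Ab1 15.0-fold and 11.0-fold lower. Against Igll1/Vpreb1-positive barcodes, Ly6d, a surface protein of lymphoid precursors, was 9.14-fold and 6.80-fold higher, and Coq7 9.91-fold and 8.57-fold higher. Cd2, an adhesion receptor, had 63 and 153 UMIs in small pre-B cells, against 3 and 3 UMIs in the Igll1/Vpreb1-positive barcodes. Dntt, the terminal transferase of pro-B cells, was 26.4-fold and 51.8-fold lower and Lef1, a Wnt pathway factor, 17.3-fold and 17.6-fold lower. Vpreb2, a surrogate light chain gene, had 1 and 2 UMIs in small pre-B cells, against 260 and 98 UMIs. Against cycling barcodes, Bmf, a death-promoting BCL2 family gene, was 29.6-fold and 16.3-fold higher. The first value of each pair is KO and the other WT.

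**Figure D4:**
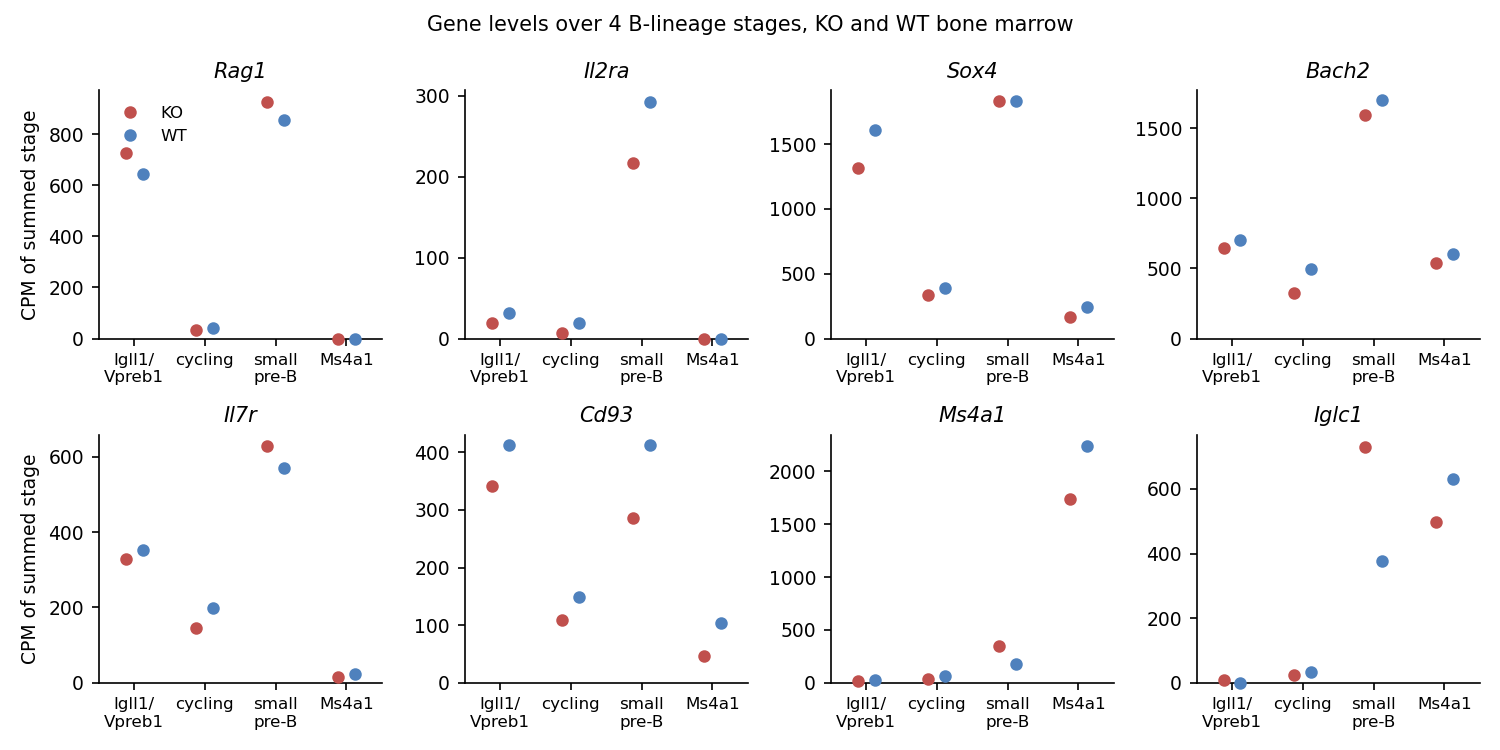
Level (CPM of the summed stage, linear axes from 0) of 8 genes in Igll1/Vpreb1-positive, cycling, small pre-B and Ms4a1-positive barcodes, KO left of WT. Rag1 and Il2ra are part of the rule for small pre-B cells, and Ms4a1 of the rule for the last stage. Bach2 is highest in small pre-B cells, at 1599 and 1702 CPM, and Iglc1 is higher in KO there (731 against 376 CPM) but lower in KO among Ms4a1-positive barcodes (498 against 630 CPM).

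The KO to WT ratios of several genes were not the same in other stages. Iglc1 had a ratio of 1.94 in small pre-B cells and 0.790 (0.700 to 0.891) in Ms4a1-positive barcodes. Cd93 was lower in KO in small pre-B cells (0.695), Ms4a1-positive (0.450) and cycling barcodes (0.735). In the Igll1/Vpreb1-positive stage a Cd93 UMI was in 59.1% of KO and 54.5% of WT barcodes, and in 32.1% and 35.0% after thinning. Myb had ratios of 0.808 in small pre-B cells, 0.499 in Ms4a1-positive and 0.863 in cycling barcodes. Ifi27l2a was lower in KO in every stage compared, at 0.619 in small pre-B cells, 0.652 in Ms4a1-positive, 0.582 in Igll1/Vpreb1-positive, 0.345 in cycling and 0.535 in Cd79a-negative barcodes. These ratios, too, kept barcodes with other cells' transcripts or high doublet scores in every stage. The differences between stages were not tested.

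Immediate early genes, which respond to stimulation and to cell handling, had higher levels in KO members, with most Junb, Fos and Ier2 UMIs in mixed barcodes. Of 27 measured genes of that list 9 were past 1.5-fold higher, against 8.12% of all genes, and 1 was lower, against 5.59%. The median log2 ratio was 0.30. Junb was at 1070 CPM in KO members and 489 CPM in WT members (ratio 2.19, 1.93 to 2.48), Fos at 291 and 138 CPM (ratio 2.11) and Ier2 at 327 and 138 CPM (ratio 2.36). The 34 mixed KO barcodes held 70.1% of the KO UMIs of Junb, 83.5% of those of Fos and 74.3% of those of Ier2, and the 75 mixed WT barcodes 51.5%, 70.1% and 64.8%. Without mixed barcodes 3 of 25 genes were past 1.5-fold higher, against 5.17% of all genes, and 0 lower, against 7.00%. Junb was then at 509 and 350 CPM (ratio 1.45, 1.17 to 1.79), Ier2 at 134 and 71.7 CPM (ratio 1.87, 1.19 to 2.89) and Jun at 436 and 276 CPM (ratio 1.58, 1.25 to 1.99) in KO and WT. Fos, at 76.5 and 60.6 CPM, had a ratio of 1.26 (0.711 to 2.16), and Dusp1 one of 0.877, against 1.55 in all members. Zfp36, an RNA-binding protein that ends such responses, had 868 CPM in KO and 514 CPM in WT (ratio 1.69) and 761 and 524 CPM without mixed barcodes (ratio 1.45). Its relative Zfp36l1, which holds pre-B cells in quiescence, measured 370 CPM in KO members and 254 in WT members (ratio 1.46, 1.19 to 1.77), and 474 and 316 CPM without them.

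**Figure D5:**
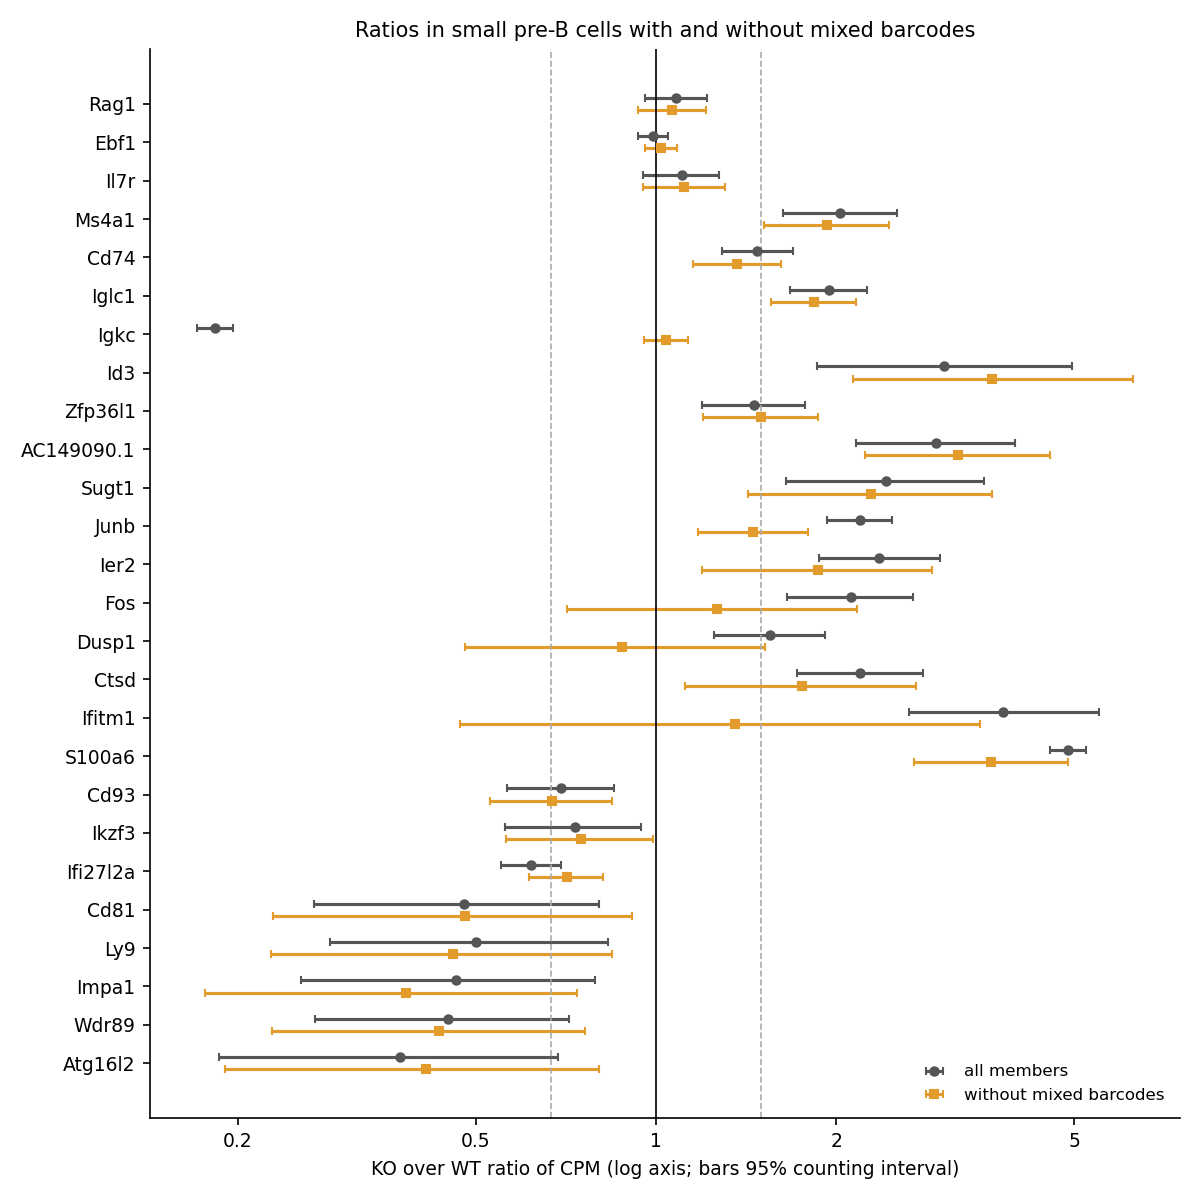
KO over WT ratio of CPM for 26 genes in small pre-B cells (log axis), from all members (circles) and without mixed barcodes (squares), with 95% counting intervals; the solid line marks a ratio of 1 and dashed lines 1.5-fold. Without mixed barcodes Ms4a1 stands at 1.93, Iglc1 at 1.83, AC149090.1 at 3.19 and Cd93 at 0.671, Igkc moves between 0.183 and 1.04, and Fos and Dusp1 come to 1.26 and 0.877.

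The type I interferon list held 36 measured genes of 61, with a median log2 ratio of -0.09. Of these, 0 were past 1.5-fold higher, against 8.12% of all genes, and 4 were lower, against 5.59%. Ifi27l2a, an interferon-induced mitochondrial protein gene, carried the most UMIs, at 851 CPM (KO) and 1376 CPM (WT) (ratio 0.619, 0.550 to 0.694), and at 906 and 1279 CPM without mixed barcodes (ratio 0.709, 0.613 to 0.817). Ifi203, whose promoter is printed above, was at 305 CPM in KO members and 399 CPM in WT members (ratio 0.766, 0.625 to 0.934). Its neighbor in the same family Ifi209 had 385 CPM in KO and 465 CPM in WT (ratio 0.828, 0.690 to 0.989). Bst2 (tetherin) had 27 UMIs in KO and 121 UMIs in WT (ratio 0.639) and 8 and 41 UMIs without mixed barcodes (ratio 0.604). Rsad2 (viperin) had 12 UMIs in KO and 69 UMIs in WT (ratio 0.498), but 2 and 6 UMIs without mixed barcodes. The fourth gene was Rtp4, with 9 UMIs in KO and 46 UMIs in WT. Without mixed barcodes 2 of 26 genes were lower, against 7.00% of all genes, and the median was -0.06, so the list was near the level of all genes.

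Among the 10 genes with the highest ratio under the naming rule were Stfa2l1 (4.15), Ifitm1, Wfdc17 (3.22), AC149090.1 (2.93), Sugt1 (2.42), D1Ertd622e (2.41), Ier2, Ctsd (2.19) and Junb. Stfa2l1, Ifitm1, Wfdc17 and Ctsd are known from myeloid cells, and mixed barcodes held 94.8%, 90.4%, 94.4% and 72.6% of their KO UMIs and 95.5%, 70.9%, 89.6% and 63.0% of their WT UMIs. Without those barcodes Stfa2l1 had 5 UMIs in KO (19.1 CPM) and 3 UMIs in WT (3.71 CPM), Wfdc17 had 3 and 5 UMIs, and the ratios of Ifitm1 and Ctsd were 1.35 and 1.75. Outside them AC149090.1 had 67 UMIs in KO and 65 UMIs in WT, and the co-chaperone gene Sugt1 34 and 46 UMIs. AC149090.1 had 90 UMIs in KO (216 CPM) and 88 UMIs in WT (73.9 CPM), a ratio of 2.93 (2.16 to 3.98), and 3.19 without mixed barcodes. It was also higher in KO in Ms4a1-positive (1.98), cycling (1.89), Igll1/Vpreb1-positive (2.62) and Cd79a-negative barcodes (1.71). Sugt1 had 54 UMIs in KO (130 CPM) and 64 UMIs in WT (53.7 CPM), a ratio of 2.42 (1.65 to 3.53), and 2.29 without mixed barcodes. S100a6, a calcium-binding relative of S100a8, lay outside the naming rule, as its mean level was under 0.5 of that in Cd79a-negative barcodes. It measured 5284 CPM in KO members and 1083 in WT members, with 95.3% of its KO UMIs in mixed barcodes. Without them it had 103 UMIs in KO (394 CPM) and 88 UMIs in WT (109 CPM), a ratio of 3.62 (2.70 to 4.87). The source of these UMIs was not tested.

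The 10 genes with the lowest ratio were Jchain, Atg16l2, Wdr89, Impa1, Cd81, Acsl4, Ly9, Manea, Cdc123 and Lgmn. Jchain, the joining chain of secreted antibodies, had 1 UMI in KO and 2439 UMIs in WT, of which 936 and 1480 lay in the 2 barcodes with plasma cell transcripts, and 0 and 18 UMIs without mixed barcodes. Cd81, a tetraspanin of the B-cell surface, had 17 UMIs in KO (40.9 CPM) and 102 UMIs in WT (85.6 CPM), a ratio of 0.478 (0.268 to 0.803). Ly9, a lymphocyte receptor of the SLAM family, had 18 UMIs in KO and 103 UMIs in WT (ratio 0.501), and Impa1 16 and 99 UMIs (ratio 0.463). Atg16l2 had 12 UMIs in KO and 92 UMIs in WT (ratio 0.374, 0.186 to 0.685), and Wdr89 21 and 134 UMIs (ratio 0.449). Without mixed barcodes the ratios were 0.479 for Cd81, 0.458 for Ly9, 0.382 for Impa1, 0.413 for Atg16l2 and 0.433 for Wdr89. In Ms4a1-positive barcodes the ratio of Cd81 was 1.18, that of Ly9 0.899, that of Impa1 1.04 and that of Wdr89 0.871.

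Counts of the remaining lists stand beside 8.12% of all genes higher and 5.59% lower, and beside 5.17% and 7.00% without mixed barcodes. Glycolysis genes had 4 higher and 1 lower of 14 measured, with a median log2 ratio of 0.44, and 2 and 0 of 9 without mixed barcodes, with a median of 0.28. Eno1 was at 190 CPM in KO members and 98.2 CPM in WT members (ratio 1.93), and at 91.8 and 59.3 CPM without them (ratio 1.55, 0.906 to 2.58). Aldoa had a ratio of 1.36 in all members and 0.852 without them. Nuclear-encoded oxidative phosphorylation genes had 0 higher and 2 lower of 76, with a median of -0.02, and MHC class I genes 0 and 0 of 19, with a median of -0.06. BCL2 family genes had 2 higher and 0 lower of 6, namely Bak1 (37 UMIs in KO and 61 UMIs in WT, ratio 1.74) and Bax (36 and 65 UMIs, ratio 1.59), both of which promote cell death, and without mixed barcodes 1 and 0 of 6, with Bak1 at a ratio of 2.06. The survival gene Mcl1 had 640 CPM in KO and 516 CPM in WT (ratio 1.24), and had a ratio of 0.999 without mixed barcodes. The p53 list had 1 higher, again Bax, and 0 lower of 12. Without mixed barcodes it had 1 and 0 of 12, but Bax was then under 1.5-fold and the gene past it was another. Marrow retention and egress receptors had 2 higher and 0 lower of 15, and 0 and 1 of 11 without mixed barcodes, with Cxcr4, the receptor that holds precursors in marrow, at 969 CPM (KO) and 909 CPM (WT) (ratio 1.07, 0.949 to 1.20). Immunoglobulin constant genes had 1 higher and 4 lower of 9, and 1 and 2 of 8 without mixed barcodes. Granule genes of neutrophils and their progenitors had 4 higher and 0 lower of 14, and 0 and 0 of 10 without mixed barcodes.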

How the data were processed

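Each bone marrow matrix holds raw UMI counts per gene and barcode, deposited by the authors. The bone marrow matrices were written by Cell Ranger 3.1.0 per the file headers, while Cell Ranger 6.1.2, Seurat 4.3.0, R 4.2.1, mm10 and GRCm38 are listed per the submitters' processing notes. No barcode held under 500 UMIs, a lower limit already present in the deposited tables. The libraries held 11070 (KO) and 8126 (WT) barcodes with 51776813 and 32906493 UMIs. The 31053 features fall under 31017 symbols, and features of 1 symbol were summed.

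Counts were summed over members per library and scaled to CPM (scipy 1.17.1, numpy 2.4.6, pandas 2.3.3). UMI sums carry exact Poisson intervals, shares Clopper-Pearson intervals, ratios of shares Katz log intervals and ratios of levels exact conditional intervals, at 95%. A count of 0 was set to 3 UMIs for ratios. A gene was called measured from 50 UMIs summed over KO and WT, and a ratio of at least 1.5 either way counted as past the fold. The code was tested on simulated data. Shares were also taken after thinning each cell to 1000 UMIs.

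Doublets were kept, as the rule states no filter on them. The scrublet method in scanpy 1.11.5 marked 0 KO barcodes at its automatic threshold, which was read as a failure, so the highest scores at 0.8% per 1000 barcodes were used in both libraries (942 KO, 507 WT). This and the set of mixed barcodes were chosen after seeing the data. The members and the 18 gene lists were chosen with earlier results of these data known. Named genes are the 10 highest and 10 lowest ratios of genes that reached 50 CPM in KO or WT, 100 UMIs in all and 0.5 of the mean level of Cd79a-negative barcodes. Antigen receptor, hemoglobin, ribosomal and mitochondrial genes, predicted genes known by a number, Xist, Tsix and genes of the Y chromosome were not eligible. Other genes of the X chromosome were, and Acsl4 is one. Also named are S100a8, S100a9, the genes and markers of the selection and up to 6 genes of each list with 100 UMIs, and the genes that most separated the stages. A gene named from under 100 UMIs was chosen after its value was seen. One gene that the naming rule picks is not reported here. The tumor libraries were not used here.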

Additional observations from a re-analysis of the deposited data

Results flagged for a closer look

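Only the 99 genes whose ratios were recomputed under other settings were searched here, not all 4953 measured genes. Given are those with a KO over WT ratio past 1.5-fold in small pre-B cells and on the other side of 1 in a neighboring stage. Both counting intervals had to be clear of 1. Barcodes with other cells' transcripts or high doublet scores were kept in every stage. Each stage is 1 library per genotype, so the difference between stages was not tested.

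Ms4a1 had a ratio of 2.03 in small pre-B cells, 0.776 (0.728 to 0.828) in Ms4a1-positive barcodes, which its own UMIs chose, and 0.488 (0.394 to 0.601) in cycling barcodes. Iglc1 had a ratio of 1.94 in small pre-B cells, 0.790 (0.700 to 0.891) in Ms4a1-positive and 0.763 (0.590 to 0.982) in cycling barcodes. Bst2 had a ratio of 0.639 in small pre-B cells and 1.18 (1.02 to 1.36) in cycling barcodes. S100a9 had a ratio of 1.52 in small pre-B cells and 0.909 (0.877 to 0.941) in Igll1/Vpreb1-positive barcodes. Without mixed barcodes its small pre-B ratio, given above, lay under 1.5.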

How the results depend on the processing

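No paired analysis was possible because each genotype is 1 library, and for the same reason no replicate could be left out. The ratio of small pre-B shares stayed within its interval under the alternatives tried. These were doublets removed, thinning, a 5% mitochondrial limit, stricter UMI rules and mixed barcodes left out of the members. In the last, mixed barcodes stayed in the denominators. The ratios were 0.234 to 0.264 of kept and 0.653 to 0.721 of Cd79a-positive barcodes. The counts of genes past 1.5-fold did not, and the number of measured genes changed with the setting. Against 402 higher and 277 lower (8.12% and 5.59% of measured genes), they were 46 and 21 at a minimum of 200 UMIs (3.26% and 1.49%). With 1 UMI they were 3822 and 1436 (29.5% and 11.1%). With free RNA subtracted they were 605 and 487 (12.4% and 9.98%). There were 156 higher genes after thinning (5.97%). The higher genes were 252 without members that carry another cell's transcripts (6.14%) and 196 without mixed barcodes (5.17%). With the mean over cells 429 genes were lower (8.66%). The higher genes were 59.2% of calls, but 48.8% with the mean over cells, 43.9% after thinning, 42.5% without mixed barcodes and 46.4% without members that carry another cell's transcripts; the cause was not tested. It was 68.7% at 200 UMIs and 72.7% with 1 UMI. The median of transcription factors minus that of all genes was -0.01, and -0.12 with 1 UMI, where the median of all genes was 0.17. Ratios crossed 1 for Fos (0.789), Ltb (0.997), Dusp1 (0.742) and Aldoa (0.826) with doublets removed, and for Igkc (1.04), Mcl1 (0.999), Dusp1 (0.877) and Aldoa (0.852) without mixed barcodes. Depth limits genes under about 100 UMIs, whose ratio intervals span more than 1.5-fold. It also limits named genes above 100 UMIs, such as Sugt1 (1.65 to 3.53), Wdr89 (0.269 to 0.715) and Ier2 (1.87 to 2.98).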
